A study of Rattus norvegicus with 8 samples.

Results

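Rab GTPases are the small switch proteins that direct membrane traffic, and they are described here in oligodendrocytes that lie against neuronal cell bodies, sorted from rat brain on postnatal day 7. The genes were chosen by symbol alone: Rab, a number and at most a letter with a digit, leaving out Rab3a, with probe sets annotated to exactly 1 gene. This gave 54 of the 13810 genes named on the arrays, read by 92 probe sets: 59 on the array type called chip A and 33 on its companion, chip B. On chip A 43 of the genes were measured and on chip B 23, of which 12 were on both. The cells were sorted for 2 surface antigens, A2B5, found on gangliosides of glial progenitors, and OTMP. There were 4 biological replicates, each hybridized to both array types (8 samples), and no other cell population, treatment or genotype. No label gives the strain, or says how many pups made up a replicate. The p-values measure the spread among these 4 samples and no other.

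A Rab protein is active on a membrane when it holds GTP and inactive when it holds GDP. Exchange factors load GTP, GTPase-activating proteins speed its hydrolysis, and GDP dissociation inhibitors lift the inactive form off the membrane. The active form recruits effectors, which tether, move and fuse vesicles, so each compartment is marked by its own Rab proteins. Oligodendrocytes depend on this traffic to carry myelin proteins and lipids to their processes. Rab31 was cloned from oligodendrocytes, and Rab35 acts in their release of exosomes.

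Each value was a linear ratio of hybridization signal, array over an unnamed reference. A ratio of 1, or 0 on the log2 scale, means as much signal as that reference. On chip B a ratio of exactly 1 stood on at least 1 array for 23.0% of all probe sets and for 9 of 33 Rab probe sets, against 0.914% and 0 of 59 on chip A. How such values arose is not known here, so a printed 1 on chip B may not be an ordinary measurement. A ratio says nothing of how strongly a gene was expressed, and it cannot rank genes by expression. In such bulk RNA, fewer cells of a type and less RNA per cell cannot be told apart. The main test was a two-sided limma test of the mean log2 ratio against 0, with Benjamini-Hochberg adjustment over all non-control probe sets of the array type at 0.05.

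No Rab gene was called higher than the reference, and 21 of 54 were lower in at least 1 probe set. On chip A 19 of 59 Rab probe sets were lower than 1, where 30.1% of all tested probe sets were, and 0 were higher (limma; 2 at an unadjusted p under 0.05), where 9.21% were. On chip B 11 of 33 were lower, beside 27.1% of all, and 0 were higher (limma; 0 at an unadjusted p under 0.05), beside 5.08%. The share of lower Rab probe sets, 32.2% and 33.3%, was thus close to that of the arrays as a whole. By gene the share with a lower probe set was 38.9%, against 37.7% of all 13810 genes, and that with a higher one was 0, against 9.23%. Taken by array type, 15 of 43 Rab genes (chip A) and 9 of 23 (chip B) were lower, beside 34.7% and 32.9% of genes. The share of genes with a higher probe set was 9.91% on chip A and 4.92% on chip B. Among probe sets annotated to a single gene, as all Rab probe sets were, 30.9% were lower and 8.7% higher on chip A. On chip B the shares were 27.2% and 3.82%.

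Most departures were under 2-fold. The median of the mean log2 ratios was -0.20 over the Rab probe sets of chip A and -0.23 over those of chip B, beside -0.11 for all tested probe sets of either type. Mean log2 ratios of Rab probe sets spanned -1.02 to 0.58 (chip A) and -1.37 to 0.72 (chip B). All probe sets spanned -2.95 to 3.70 and -3.04 to 3.90. No Rab probe set had a mean above a 2-fold excess, which 3.18% (chip A) and 2.83% (chip B) of all probe sets had. A mean below a ratio of 0.5 was found for 1 of 59 (1.69%, all 6.42%) on chip A, and for 4 of 33 (12.1%, all 7.50%) on its companion. A departure larger than 1.5-fold was called for 2 of 59 and 3 of 33 Rab probe sets, all lower, beside 8.08% and 10.8% of all (2.24% and 1.18% were higher by that measure). They belonged to Rab7a, Rab15, Rab17, Rab5b and Rab20. The median of all probe sets itself lay at -0.12 on chip A and -0.10 on chip B when averaged over the arrays. Relative to each array's median, 13 Rab probe sets were lower and 1 higher on chip A (23.3% and 11.8% of all), and 11 and 0 on chip B (23.7% and 5.68%).

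**Figure D1:**
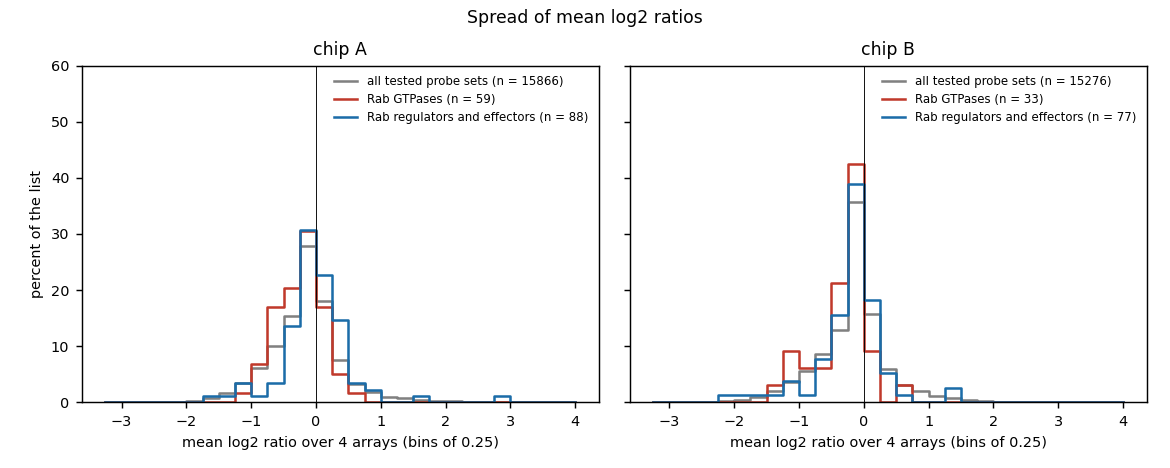
Share of probe sets (percent of each list, y axis) by mean log2 ratio over 4 arrays (x axis, bins of 0.25) on chip A and chip B, for all tested probe sets, Rab GTPases, and the regulators and effectors of Rab GTPases. The Rab lists of 59 and 33 probe sets end below 1 on the log2 scale, while the regulator list of chip A reaches 2.88.

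Of the 26 Rab genes with several probe sets, 4 were lower in every one: Rab2a, Rab7a, Rab11a and Rab33b. That is 15.4%, where 8.34% of all 4494 genes with several probe sets were lower in every one, and the difference was not tested. Both Rab11a calls were kept without any 1 replicate. Each of the other 3 genes lost at least 1 of its calls when a replicate was left out. The promoters of these genes are shown because their probe sets were called alike, as 250 bases before the transcription start from RefSeq (GRCr8), 5′ to 3′. The table of promoters matched 44 of the 54 genes, Rab2a not among them. The promoter of Rab7a lies at chr4:122064186-122064435 on the minus strand, that of Rab11a at chr8:74141685-74141934 on the minus strand and that of Rab33b at chr2:137678728-137678977 on the plus strand. Capitals mark every match, on either strand, to the E-box CACGTG, the CCAAT box, the GC box GGGCGG, the cAMP response element TGACGTCA and the TATA box TATAAA.
Rab7a: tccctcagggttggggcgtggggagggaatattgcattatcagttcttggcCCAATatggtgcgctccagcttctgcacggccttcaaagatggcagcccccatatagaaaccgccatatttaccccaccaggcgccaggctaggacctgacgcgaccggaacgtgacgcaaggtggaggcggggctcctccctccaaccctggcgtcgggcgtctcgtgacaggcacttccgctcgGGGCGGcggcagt
Rab11a: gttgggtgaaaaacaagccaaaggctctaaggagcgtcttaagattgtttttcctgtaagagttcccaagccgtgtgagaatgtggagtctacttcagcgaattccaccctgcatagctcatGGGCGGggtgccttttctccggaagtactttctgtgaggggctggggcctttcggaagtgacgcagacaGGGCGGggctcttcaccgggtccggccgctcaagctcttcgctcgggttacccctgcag
Rab33b: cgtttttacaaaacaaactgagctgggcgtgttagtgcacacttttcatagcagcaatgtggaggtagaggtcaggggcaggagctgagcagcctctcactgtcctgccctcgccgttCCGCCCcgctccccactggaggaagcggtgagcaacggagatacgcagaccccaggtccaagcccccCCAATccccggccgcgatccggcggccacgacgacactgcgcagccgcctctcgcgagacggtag

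Rab11a held 2 GC boxes, and Rab7a and Rab33b held 1 GC box and 1 CCAAT box each. A GC box was found in 34 of the 44 Rab promoters (77.3%), against 54.7% of 11402 promoters of genes named on the arrays and 32.4% of 27457 promoters in all. It was in 17 of 19 promoters of genes with a lower probe set and in 17 of the other 25. This difference was not tested, and the same split over all genes on the arrays was not computed. A CCAAT box was in 14 (31.8%, against 35.1% of genes on the arrays and 34.3% of all promoters), and an E-box was in 3 (6.82%, against 7.90% and 5.79%). The cAMP response element was in 1 (2.27%, against 2.65% and 1.70%). The TATA box was in 0 of 44, against 8.08% and 13.1%. Rab promoters were rich in G and C, with a median of 63% against 59.2% for genes on the arrays. These matches describe letters in a window and not binding.

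Rab genes of the early and recycling endosome were the largest group, with 16 genes. Of them 7 had a lower probe set: Rab5a, Rab5b, Rab11a, Rab14, Rab15, Rab17 and Rab20. Over both array types 37.7% of all genes had a lower probe set. On chip A 8 of 24 probe sets of the group were lower (33.3%, all tested 30.1%), with a median log2 ratio of -0.27. On chip B 5 of 12 were (41.7%, all tested 27.1%), with a median of -0.25. These probe sets included several of 1 gene. By gene 5 of 14 were lower on chip A (all genes 34.7%) and 3 of 7 on chip B (all genes 32.9%). No difference between a role group and all genes or probe sets was tested. The other 9 genes, Rab4a, Rab4b, Rab5c, Rab11b, Rab21, Rab22a, Rab25, Rab31 and Rab35, had no call.

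Rab11a, the master Rab protein of the recycling endosome, had ratios of 0.625, 0.57, 0.567 and 0.62 in replicates 1 to 4 with its more even probe set. The mean log2 ratio was -0.75 ± 0.08 (SD, n = 4, limma adjusted p = 0.000615). Its other probe set gave 0.463, 0.756, 0.572 and 0.699, or -0.71 ± 0.32 (n = 4, limma adjusted p = 0.0103). All 8 values lay below 1, and the means of both probe sets were close. The sister gene Rab11b stood nearer the reference and was not called, at -0.20 ± 0.11 (n = 4, limma adjusted p = 0.0893) and -0.19 ± 0.21 (0.187).

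Rab5 proteins organize the fusion of early endosomes. Rab5a gave 0.656, 0.647, 0.604 and 0.552 with 1 probe set (-0.71 ± 0.11, n = 4, limma adjusted p = 0.00116). With the other it gave 0.999, 0.827, 0.872 and 1.001 (-0.12 ± 0.14, n = 4, limma adjusted p = 0.299). The ranges of the pair did not overlap on the same 4 arrays, so the call of Rab5a rests on which probe set is read. Rab5b was lower in 4 of 5 probe sets. Its lowest, on chip B, gave 0.431, 0.444, 0.473 and 0.465 (-1.14 ± 0.06, n = 4, limma adjusted p = 0.000105). The others called on chip B stood at -0.79 ± 0.13 and -0.74 ± 0.08, and that on chip A at -0.46 ± 0.29 (n = 4, limma adjusted p = 0.0364, and 0.102 against the array median), lost also without replicate 1, 2 or 3. The fifth, on chip A, stood at 0.03 ± 0.17 (n = 4). Rab5c, with ratios from 0.583 to 1.053, was not called (-0.28 ± 0.39, n = 4, limma adjusted p = 0.225).

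The lowest Rab value of all belonged to Rab17, a Rab protein of epithelial recycling endosomes and of dendrites. Its probe set on chip B gave 0.368, 0.392, 0.392 and 0.393 (-1.37 ± 0.05, n = 4, limma adjusted p = 6.89e-05). Its mean ratio of 0.386 lay near the lowest of a control probe set on chip B, 0.400. So low and even a ratio does not by itself show a scarce transcript. The other Rab17 probe sets on the same arrays ranged from 0.788 to 1.019 and from 0.836 to 1.047, and were not called. Rab20, an endosomal and phagosomal Rab protein, divided likewise. Its lowest probe set gave 0.457, 0.51, 0.419 and 0.595 (-1.03 ± 0.22, n = 4, limma adjusted p = 0.00143), while the others stood at -0.24 ± 0.18 and 0.04 ± 0.12 (n = 4) and were not called.

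Rab15, which regulates endosome recycling in neurons, was lower in both probe sets of chip A. They gave 0.505, 0.544, 0.524 and 0.588 (-0.89 ± 0.09, n = 4, limma adjusted p = 0.000391) and 0.599, 0.631, 0.636 and 0.587 (-0.71 ± 0.06, adjusted p = 0.000657). The Rab15 probe set of chip B, at 0.895 to 0.987, was near the reference (-0.07 ± 0.06, n = 4, limma adjusted p = 0.328). Among genes known from oligodendrocytes, Rab31 had ratios of 0.744, 1.028, 0.972 and 0.731 in 1 probe set and 0.997, 0.833, 1.003 and 1.067 in the other. Neither was called (-0.22 ± 0.26 and -0.04 ± 0.15, n = 4, limma adjusted p = 0.188 and 0.724). Rab35 gave 0.652, 0.81, 0.919 and 0.852, below 1 on all 4 arrays, and fell just outside the threshold (-0.32 ± 0.21, n = 4, limma adjusted p = 0.0549). The member just inside it on chip A was the Rab5b probe set at an adjusted p of 0.0364 in limma.

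Rab14, which links the Golgi to endosomes, had the widest distance between its probe sets, from -0.68 to 0.72. On chip A its probe sets stood at -0.68 ± 0.24 (n = 4, limma adjusted p = 0.00593), -0.26 ± 0.09 (adjusted p = 0.0339), 0.01 ± 0.22 (0.97) and 0.03 ± 0.15 (0.804). On chip B the ratios were 3.865, 1.264, 1 and 1.502, the highest Rab mean on that type (0.72 ± 0.86, n = 4, limma adjusted p = 0.205). Replicate 1 alone lay above 2. On that array the single neuron marker was at 0.72, the lowest of the 4 (0.72 to 0.755). The single astrocyte marker was at 3.078 there and highest in replicate 2, at 3.376. On the chip A array of replicate 1 the summed ratios of neuron markers (37.4, against 23.7 to 27.7) and of astrocyte markers (68.3, against 32.3 to 60.2) were the highest. By the median ratio, neuron markers were again highest in replicate 1 (1.516). Astrocyte markers were highest by that measure in replicate 3 (2.337, against 2.04 in replicate 1). The part of either in the value was not tested. The call at -0.26 was lost without any 1 of the 4 replicates. Rab22a, another endosomal Rab protein, was not called in any of 3 probe sets, at -0.29 ± 0.30, 0.07 ± 0.08 and, on chip B, 0.18 ± 0.33 (n = 4). Rab4a, which returns cargo quickly to the surface, ranged from 0.612 to 1.169 (-0.33 ± 0.43, n = 4). Rab21, which follows integrins into early endosomes, ranged from 0.71 to 0.975 (-0.26 ± 0.22), and Rab25, an epithelial relative of Rab11, from 0.911 to 1.069 (-0.04 ± 0.10).

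**Figure D2:**
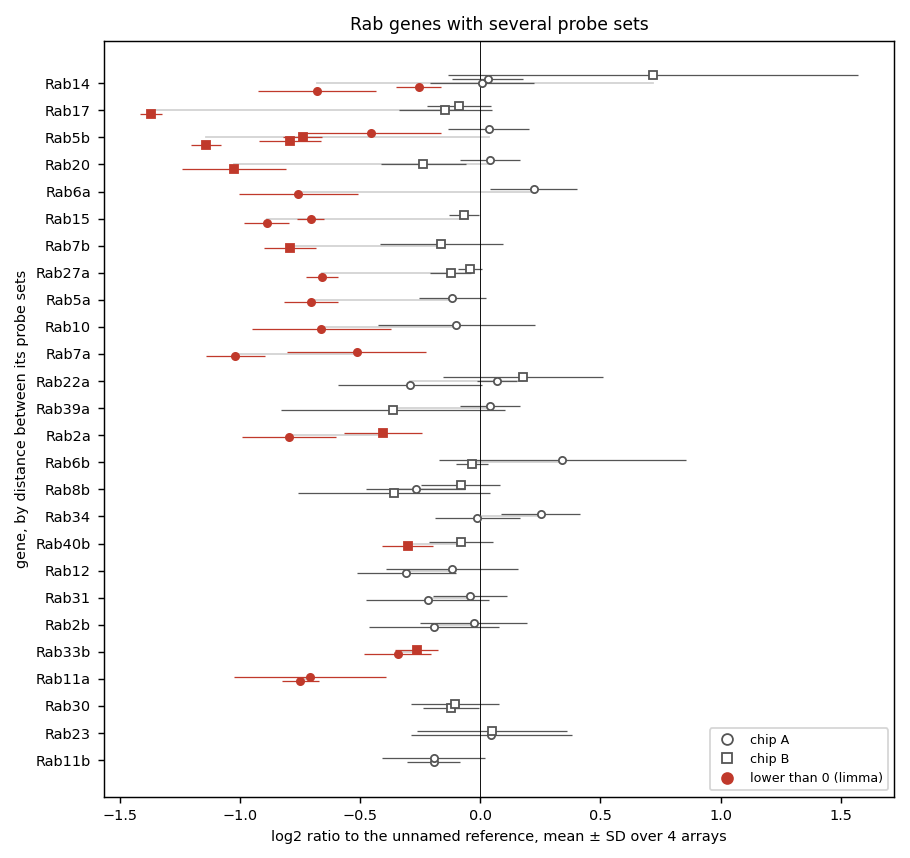
Mean log2 ratio ± SD over 4 arrays (x axis) for every probe set of the 26 Rab genes with several probe sets (y axis), with filled red marks for those lower than 0 in limma, circles for chip A and squares for chip B. Rab11a and Rab2a have all their marks below 0, while those of Rab14 run from -0.68 to 0.72.

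Of 13 genes that act between the endoplasmic reticulum and the Golgi or within the Golgi, 7 had a lower probe set: Rab1a, Rab2a, Rab6a, Rab18, Rab33a, Rab33b and Rab43. The other 6, Rab1b, Rab2b, Rab6b, Rab30, Rab36 and Rab39a, had no call. The group had 5 of 11 lower probe sets on chip A (45.5%, all tested 30.1%, median -0.19). On chip B it had 4 of 9 (44.4%, all tested 27.1%, median -0.27). Of all genes 37.7% had a lower probe set, and the differences were not tested. Rab2a, needed for traffic between the reticulum and the Golgi, was lower on both array types. It gave 0.671, 0.582, 0.581 and 0.483 on chip A (-0.80 ± 0.19, n = 4, limma adjusted p = 0.00187) and 0.671, 0.756, 0.879 and 0.727 on chip B (-0.41 ± 0.16, adjusted p = 0.0169). Its paralog Rab2b was near the reference in both probe sets, at -0.19 ± 0.27 and -0.03 ± 0.22 (n = 4).

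Rab18, a Rab protein of the reticulum and of lipid droplets, had ratios of 0.619, 0.63, 0.632 and 0.441 (-0.80 ± 0.25, n = 4, limma adjusted p = 0.0036). Replicate 4 was the low one. Rab6a, which acts at the trans-Golgi, was read in opposite directions by its probe sets: 0.53, 0.537, 0.764 and 0.562 (-0.76 ± 0.25, n = 4, limma adjusted p = 0.00417) against 1.339, 1.122, 1.001 and 1.231 (0.22 ± 0.18, adjusted p = 0.11). The ranges did not overlap, and the higher one was not called. Rab6b, the form of Rab6 enriched in neurons, stood at 2.085 in replicate 1 and at 0.916, 1.078 and 1.251 in the others (0.34 ± 0.51, n = 4, limma adjusted p = 0.244). Its probe set on chip B was at 0.931 to 1.034 (-0.03 ± 0.07, n = 4). Rab33a, a Golgi Rab protein of brain and immune cells, gave 0.46, 0.415, 0.717 and 0.336 (-1.11 ± 0.46, n = 4, limma adjusted p = 0.0123), a call that was lost without replicate 1 or 2. Rab33b, which links the Golgi to autophagy, was slightly lower on both types (-0.34 ± 0.14 and -0.27 ± 0.09, n = 4, limma adjusted p = 0.0211 and 0.0204). Both Rab33b calls were lost without replicate 1, 2 or 3, and the Rab2a call of chip B without replicate 1, 2 or 4. Rab43, a Golgi Rab protein, gave 0.753, 0.819, 0.775 and 0.782 (-0.35 ± 0.05, n = 4, limma adjusted p = 0.00386). Rab30 (-0.12 ± 0.12 and -0.11 ± 0.18) and Rab36 (-0.08 ± 0.08), also of the Golgi, were not called.

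For Rab1a and Rab1b, which start traffic out of the reticulum, 6 further probe sets were annotated to Rab1b together with Rab1a or a Rab1b pseudogene and were left out. Of these 1 was lower, on chip B, at -0.61 ± 0.38 (n = 4, limma adjusted p = 0.0456). The single-gene probe set of Rab1a gave 0.768, 0.923, 0.682 and 0.779 (-0.35 ± 0.18, n = 4, limma adjusted p = 0.0294, and 0.104 against the array median), lost also without replicate 1, 3 or 4. That of Rab1b stood at -0.12 ± 0.05 (n = 4, limma adjusted p = 0.205).

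**Figure D3:**
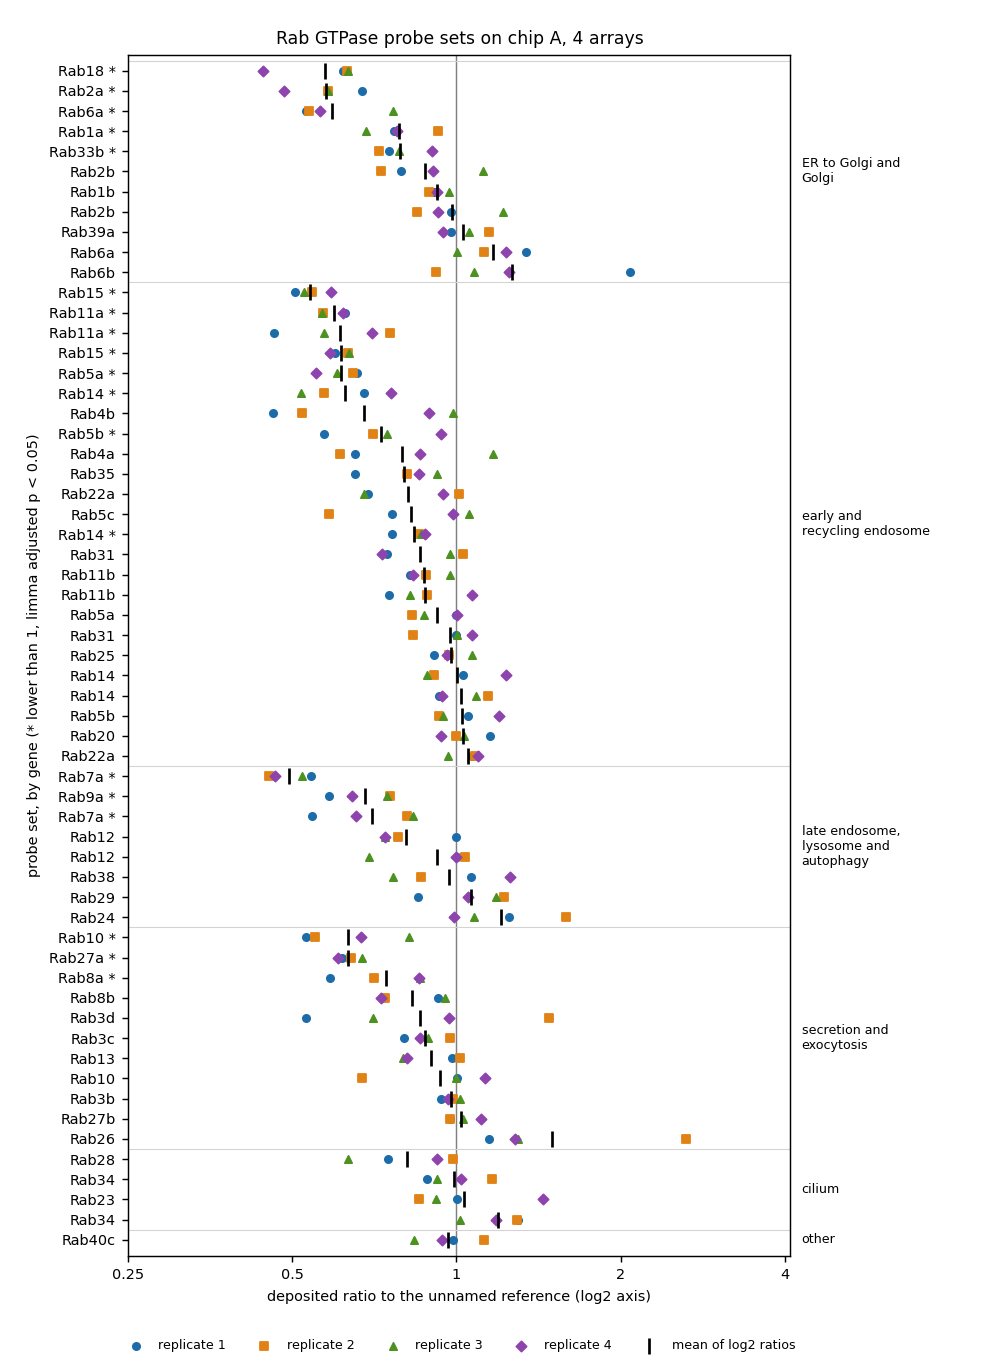
Deposited ratios (x axis, log2 scale) of the 59 Rab probe sets of chip A in each of 4 replicates, with their mean as a bar, grouped by role (right) and labelled by gene (left), with an asterisk for those lower than 1 in limma. The 19 marked probe sets have all 4 arrays below 1, and Rab26 and Rab6b each have 1 array above 2.

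Late endosomal, lysosomal and autophagic Rab genes had 3 of 9 with a lower probe set: Rab7a, Rab7b and Rab9a. Rab9b, Rab12, Rab24, Rab29, Rab32 and Rab38 had no call. Among all genes 37.7% had a lower probe set. Rab7a, which drives the fusion of late endosomes with lysosomes, had the lowest Rab mean on chip A. Its probe sets gave 0.541, 0.452, 0.52 and 0.465 (-1.02 ± 0.12, n = 4, limma adjusted p = 0.000337) and 0.542, 0.812, 0.831 and 0.654 (-0.52 ± 0.29, adjusted p = 0.0243). The second call was lost against the array median (limma adjusted p = 0.0555) and without replicate 1 or 4. Rab7b, which acts between late endosomes and the Golgi, stood at -0.79 ± 0.11 (n = 4, limma adjusted p = 0.000613) with 1 probe set of chip B and at -0.16 ± 0.26 (0.331) with the other. Rab9a, of the path from late endosomes to the Golgi, gave 0.584, 0.754, 0.745 and 0.644 (-0.56 ± 0.18, n = 4, limma adjusted p = 0.0057).

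Rab9b varied more, at 0.839, 0.45, 0.528 and 0.8, and lay just outside the threshold on chip B (-0.66 ± 0.44, n = 4, limma adjusted p = 0.057). The member just inside was Rab33b at an adjusted p of 0.0204 in limma. Rab24, linked to autophagy, was among the highest on chip A at 1.246, 1.586, 1.078 and 0.991 (0.27 ± 0.30, n = 4, limma adjusted p = 0.155). Rab29, a Golgi and lysosome partner of the kinase Lrrk2, gave 0.849, 1.22, 1.181 and 1.052 (0.09 ± 0.24, adjusted p = 0.551). Neither was called. Rab12, which acts on the breakdown of receptors in lysosomes, lay below 1 in 1 probe set (0.738 to 0.997, -0.31 ± 0.21, n = 4, limma adjusted p = 0.0572) and stood at -0.12 ± 0.27 in the other. Rab32 and Rab38, which serve the making of melanosomes and other lysosome-related organelles, stood at -0.23 ± 0.24 on chip B and -0.05 ± 0.32 on chip A.

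Of 10 Rab genes of secretion and exocytosis 3 had a lower probe set: Rab8a, Rab10 and Rab27a. The others, Rab3b, Rab3c, Rab3d, Rab8b, Rab13, Rab26 and Rab27b, had no call. Among all genes 37.7% had a lower probe set. On chip A 3 of 11 probe sets of the group were lower (27.3%, all tested 30.1%, median -0.19). On chip B 0 of 4 were (limma, 0 at an unadjusted p under 0.05), beside 27.1% of all tested. Rab27a and Rab27b both serve the release of vesicles and exosomes. Rab27a gave 0.616, 0.639, 0.672 and 0.606 on chip A (-0.66 ± 0.07, n = 4, limma adjusted p = 0.000912) but 0.873, 0.871, 0.959 and 0.974 and 0.925, 0.967, 0.991 and 1 on chip B, where neither was called. Rab27b lay at the reference, at 0.971, 0.973, 1.028 and 1.11 (0.03 ± 0.09, n = 4, limma adjusted p = 0.787).

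Rab8a, a Rab protein of surface delivery and cilia, had ratios of 0.585, 0.707, 0.856 and 0.855 (-0.43 ± 0.26, n = 4, limma adjusted p = 0.0341), a call lost against the array median (0.0899) and without replicate 1, 2 or 4. Its sister gene Rab8b was not called in any of 3 probe sets (-0.27 ± 0.21, -0.36 ± 0.40 and -0.08 ± 0.16, n = 4). Rab10, which carries vesicles to the plasma membrane, was called in 1 of 2 probe sets (-0.66 ± 0.29, n = 4, limma adjusted p = 0.0103; the other -0.10 ± 0.33). The highest Rab mean on chip A was that of Rab26, which acts in granule secretion and in autophagy of synaptic vesicles. Its ratios of 1.146, 2.633, 1.296 and 1.279 were all above 1, with replicate 2 far above the rest (0.58 ± 0.55, n = 4, limma adjusted p = 0.0876). The summed ratio of the choroid plexus markers (4 probe sets) was 8.01 in replicate 2 and 4.98, 4.44 and 6.30 in replicates 1, 3 and 4. That of the erythroid markers (2 probe sets) was 3.40 in replicate 2 and 1.97, 2.28 and 3.30 in the others. The neuron sum was lowest in replicate 2 (23.7), and the endothelial and mural sum was highest in replicate 3 (10.7). The part of these markers in the Rab26 value was not tested. Rab3d, a secretory granule Rab protein, varied most on chip A, at 0.53, 1.481, 0.703 and 0.97 (-0.23 ± 0.64, n = 4, limma adjusted p = 0.521). Its relatives Rab3b and Rab3c, of regulated exocytosis, were more even (0.938 to 1.014, -0.04 ± 0.05, and 0.801 to 0.974, -0.19 ± 0.12, n = 4). Rab13, of epithelial junctions, stood at -0.16 ± 0.18.

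The 3 cilium genes had no call at a ratio of 1. Rab34 gave 1.295, 1.29, 1.014 and 1.183 in 1 probe set (0.25 ± 0.17, n = 4, limma adjusted p = 0.0712). It was the only Rab gene called higher than the array median (0.37, limma adjusted p = 0.0324), though other Rab genes had larger means without a call. The other Rab34 probe set stood at -0.01 ± 0.18 (n = 4). Rab23, an antagonist of hedgehog signalling, stood at 0.04 ± 0.34 on chip A and 0.05 ± 0.31 on chip B (n = 4), and Rab28 at -0.30 ± 0.29 (n = 4). Of the 3 remaining genes Rab40b was lower in 1 of 2 probe sets (-0.30 ± 0.11, n = 4, limma adjusted p = 0.0174; lost without replicate 1, 2 or 4; the other -0.08 ± 0.13). Rab19 (0.06 ± 0.19) and Rab40c (-0.05 ± 0.18) had no call.

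**Figure D4:**
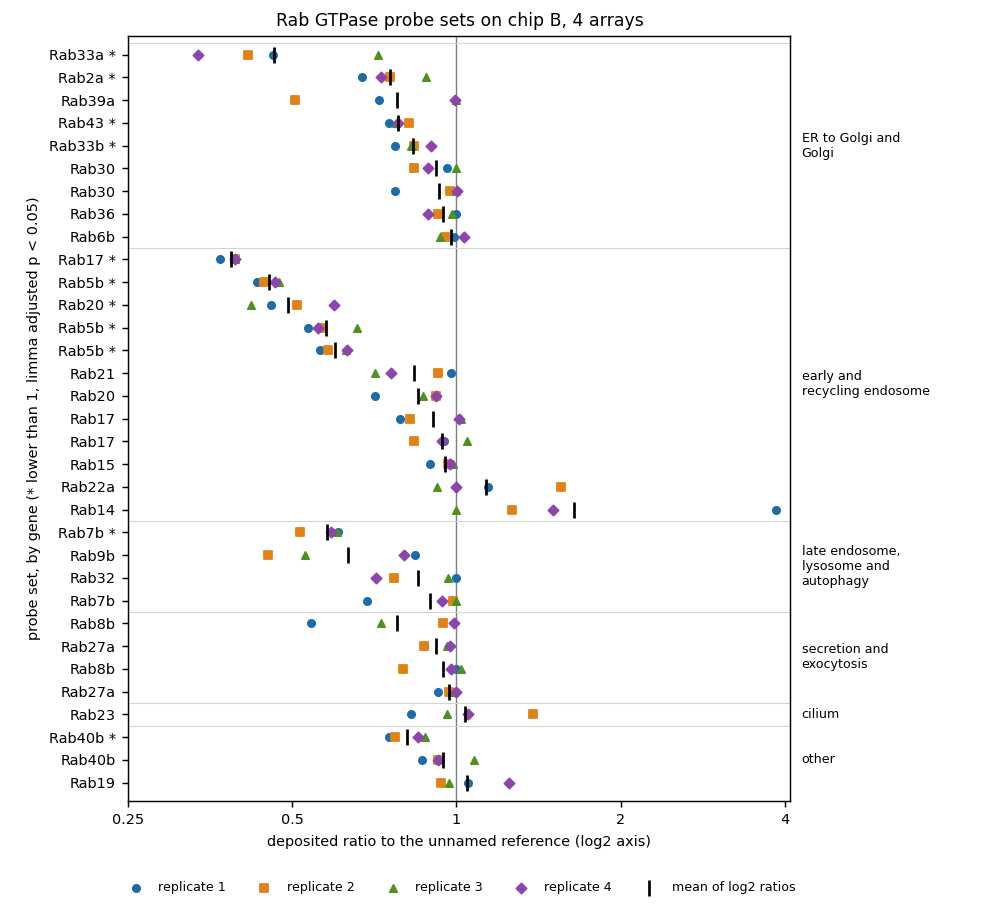
Deposited ratios (x axis, log2 scale) of the 33 Rab probe sets of chip B in each of 4 replicates, with their mean as a bar, grouped by role (right) and labelled by gene (left), with an asterisk for those lower than 1 in limma. The lowest is a Rab17 probe set at 0.368 to 0.393, and the highest single value is 3.865 for Rab14 in replicate 1.

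The highest array over the lowest was 1.35-fold in the median on chip A and 1.28-fold on chip B. It was above 2 for 4 of 59 probe sets (Rab3d, Rab4b, Rab6b and Rab26) and 2 of 33 (Rab14 and Rab33a), beside 11.9% and 13.5% of all tested probe sets. Rab4b, of the recycling endosome, was low in replicates 1 and 2 (0.461 and 0.521) and near 1 in replicates 3 and 4 (0.985 and 0.891), and was not called (-0.56 ± 0.55, n = 4, limma adjusted p = 0.0946). Rab39a, a Golgi and endosomal Rab protein, also varied on chip B (0.722, 0.506, 1 and 0.993; -0.37 ± 0.47, n = 4, limma adjusted p = 0.235). Replicate 1 most often held the lowest value of a Rab probe set, for 22 of 59 (chip A) and 17 of 33 (chip B). Its median Rab ratio was also the lowest of the 4 arrays, at 0.801 and 0.788, as was the median of all its probe sets, at 0.903 and 0.888. Across Rab probe sets, the correlation between arrays was 0.51 to 0.70 (chip A) and 0.63 to 0.81 (chip B), a description over 59 and 33 probe sets. Over all probe sets it was 0.72 to 0.79 and 0.71 to 0.79, so every value for Rab probe sets of chip A lay below the range for all. Rab means on chip A also spanned less, from -1.02 to 0.58 against -2.95 to 3.70 for all. The median SD over the 4 arrays was 0.206 for Rab probe sets and 0.212 for all. A correlation depends on the span of values, so it does not show that Rab probe sets repeated less well. The genes of 1 probe set each were called in 6 of 28 cases. The matching share over all genes with 1 probe set was not computed, so this count has no comparison. For the 26 genes with several probe sets the median distance between the highest and lowest mean was 0.40 on the log2 scale, against 0.44 over 4494 such genes in all.

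The proteins that load, hydrolyse, extract and read Rab GTP were measured for 105 of 119 listed genes. Unlike the Rab genes, they had calls on both sides of the reference, although the difference between the lists was not tested. On chip A 8 of 88 probe sets were higher and 17 lower (9.21% and 30.1% of all tested), and on chip B 2 of 77 were higher and 15 lower (5.08% and 27.1%). Their median log2 ratio was -0.02 on chip A and -0.14 on chip B. By gene 7 were only higher, 23 only lower and 72 neither, while 3 had probe sets of both kinds. By class, exchange factors had 3 of 29 higher and 4 lower on chip A, GTPase-activating proteins 2 of 20 and 2, effectors 3 of 31 and 9, and chaperones with prenylation factors 0 of 8 and 2. On chip B the same classes had 0 of 22 higher and 4 lower, 2 of 31 and 5, 0 of 22 and 5, and 0 of 2 and 1.

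Als2cl, a relative of the Rab5 exchange factor alsin, had the highest ratios of the list on chip A, at 7.692, 4.692, 9.398 and 8.706 (2.88 ± 0.45, n = 4, limma adjusted p = 0.000195). On chip B its other probe set gave 0.356, 0.356, 0.368 and 0.376 (-1.46 ± 0.04, adjusted p = 6.16e-05). The calls of Als2cl were thus opposite. Hps4 (0.76 ± 0.23 on chip A and -0.59 ± 0.08 on chip B, n = 4) and Rabgap1 (0.34 ± 0.22 and -0.62 ± 0.07) were the others with opposite calls, and were picked out after their values were seen. The higher Rabgap1 call was lost under a trended and robust prior (limma adjusted p = 0.0927). The same probe set is also on chip B, where it was not called (0.26 ± 0.22, n = 4, limma adjusted p = 0.122).

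Rab11fip4, an effector of Rab11 at the recycling endosome, gave 3.227, 3.095, 2.06 and 3.175 (1.51 ± 0.31, n = 4, limma adjusted p = 0.000595). All 4 arrays were above 2, where both Rab11a probe sets were below 1. Rab11fip1, of the same family, varied on chip B (1, 2.557, 1.119 and 1.447; 0.51 ± 0.60, n = 4, limma adjusted p = 0.204). Ehbp1, which binds Rab8 and Rab10 on tubular endosomes, stood at 2.217, 2.019, 1.464 and 1.931 on chip A (0.92 ± 0.26, n = 4, limma adjusted p = 0.00224). Higher on chip B were 2 GTPase-activating proteins of the TBC family, Tbc1d9 (3.008, 4.166, 1.211 and 3.518; 1.43 ± 0.80, n = 4, limma adjusted p = 0.0306) and Usp6nl (3.693, 3.573, 2.02 and 1.402; 1.31 ± 0.68, adjusted p = 0.0247). The Usp6nl call was lost without replicate 1, 2 or 3, and that of Tbc1d9 without replicate 1, 2 or 4. Other Usp6nl probe sets of chip B were not called, at -0.26 ± 0.40 and 0.02 ± 0.29 (n = 4).

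The lowest of the list on chip A were Sgsm3, a GTPase-activating protein (0.337 to 0.369; -1.51 ± 0.06, n = 4), Sytl4, a Rab27 effector of secretory granules (0.384 to 0.43; -1.31 ± 0.07), and Exoc6, a subunit of the exocyst complex (0.293 to 0.554; -1.19 ± 0.42), with limma adjusted p from 0.000102 to 0.00359. On chip B they were Rilpl1, an effector of ciliary Rab proteins (0.23 to 0.235; -2.10 ± 0.01, n = 4), and a pair of Tbc1d8 probe sets (0.291 to 0.298 and 0.321 to 0.333; -1.77 ± 0.02 and -1.61 ± 0.02). These 3 varied little across replicates. Other probe sets of the same genes lay closer to 1: on chip A Sgsm3 stood at 0.15 ± 0.12, and Rilpl1 at -0.52 ± 0.37 and 0.07 ± 0.27 (n = 4). On chip B further Tbc1d8 probe sets stood at -1.02 ± 0.05, also called lower, and at -0.22 ± 0.28, not called (n = 4). Array control probe sets could be low as well. In limma 18 of 57 (chip A) and 19 of 57 (chip B) were lower than 1. Their lowest mean ratios were 0.396 and 0.400. A low, even ratio does not by itself show that a transcript was scarce. Gdi2, a GDP dissociation inhibitor picked out after its values were seen, has a probe set present on both array types. It gave 0.736, 0.762, 0.633 and 0.727 on chip A (-0.49 ± 0.12, n = 4, limma adjusted p = 0.00476) and 0.778, 0.893, 0.683 and 0.764 on chip B (-0.37 ± 0.16, adjusted p = 0.0221). Its other probe set on chip A ran from 0.252 to 0.964 (-1.05 ± 0.80, n = 4, limma adjusted p = 0.0444). Against the array median the chip B call (limma adjusted p = 0.113) and this last one (0.0916) were lost.

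**Figure D5:**
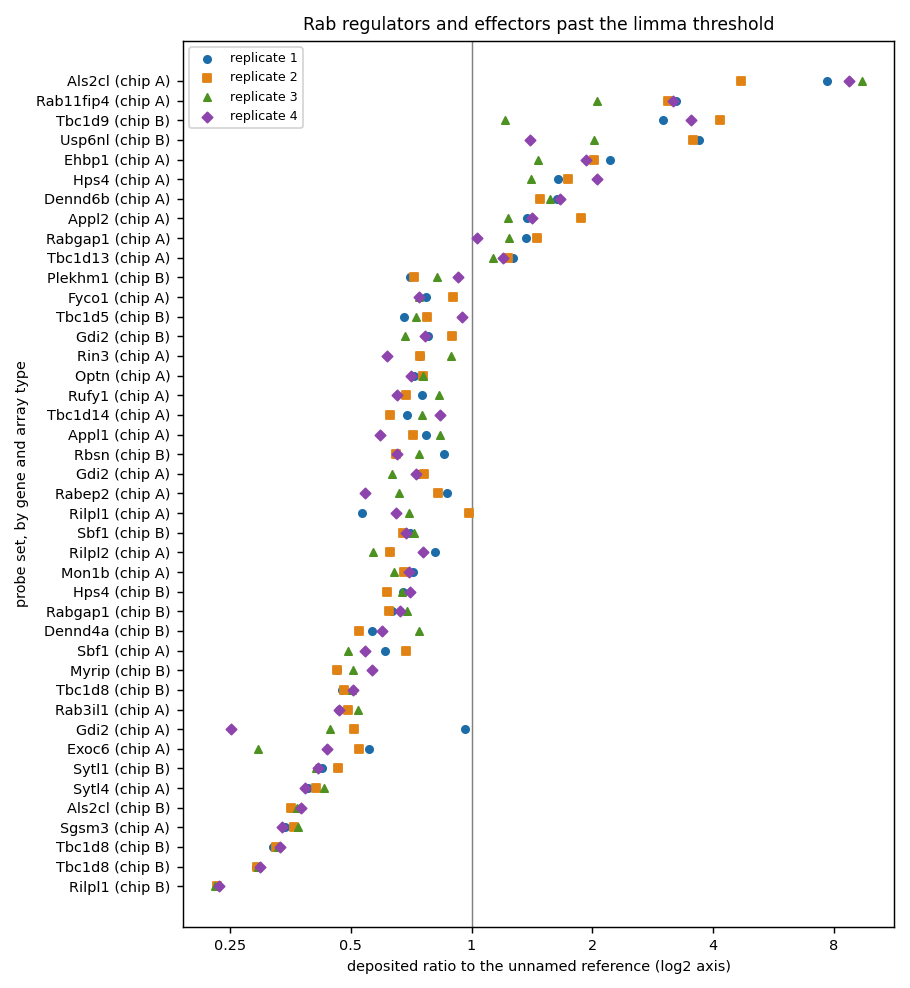
Deposited ratios (x axis, log2 scale) in each of 4 replicates for the regulator and effector probe sets past the limma threshold against 1 (y axis, by gene and array type). Als2cl on chip A is highest at 4.692 to 9.398, and Rilpl1 on chip B lowest at 0.23 to 0.235.

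Marker genes were read by the same limma test, beside 9.21% higher and 30.1% lower of all probe sets on chip A. Of 17 astrocyte probe sets 11 were higher and 2 lower, of 17 neuron probe sets 8 were higher and 1 lower, and of 17 of the oligodendrocyte lineage 1 was higher and 2 lower. Of microglia and macrophage markers 0 of 12 were higher (limma, 0 at an unadjusted p under 0.05) and 4 were lower, of which 0 were lower against the array median. Of 9 endothelial and mural probe sets 0 were higher and 1 lower, and of 4 of choroid plexus and ependyma 2 were higher and 1 lower. Neither of the 2 erythroid ones was called. Chip B, where 5.08% of all were higher and 27.1% lower, held few markers. The 1 astrocyte probe set was higher, the 1 neuron probe set lower (-0.45), and of 4 of the oligodendrocyte lineage 1 was lower. Of 4 endothelial and mural ones there 1 was higher and 0 lower, and the 1 microglia probe set was not called. Summed over the 17 oligodendrocyte lineage probe sets the ratio was 14.7 to 20.6 on the 4 arrays, and over the 17 astrocyte ones 32.3 to 68.3. Since ratios are to an unnamed reference, they do not show whether a marker was present, and the part of other cells in the Rab values was not tested.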

How the data were processed

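Total RNA of A2B5/OTMP+ cells from 4 biological replicates was biotin-labelled and hybridized to 2 Affymetrix array types. RMA was the authors' tool, as the submitters' processing notes list it. The deposited values are linear ratios to a reference that no label names, and no source used here gives the step from RMA values to ratios. Genes were taken from the platform annotation: 1 gene was named for 12783 of 15866 non-control probe sets (chip A) and 7564 of 15276 (chip B), and 0 Rab symbols changed through RefSeq gene IDs (GRCr8). Ratios were put on the log2 scale and each array type was fitted apart in limma 3.58.1 (R 4.3.3) with an intercept and eBayes, without a floor or a filter on low values, so all 92 Rab probe sets were tested. The fit was tested on simulated data in which few probe sets were shifted. It recovered 28% (chip A) and 40% (chip B) of 1.5-fold shifts, and 70% and 66% of 2-fold shifts. Under a trended and robust prior it recovered 0% of 2-fold shifts on either type. Many more probe sets were called on the arrays than were shifted there, so recovery may differ. A probe set that was not called may still depart from 1. The 57 control probe sets of each type were left out. Arrays carry no read depth, and their number limits precision.

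The Rab genes and lists were chosen with earlier results of these data known. Named with values were, per array type, the 8 highest and 8 lowest Rab probe sets, the 4 with the largest SD, Rab5a, Rab7a, Rab8a, Rab11a, Rab27a, Rab27b, Rab31 and Rab35, any Rab gene called both ways (there were 0), and the 3 highest and 3 lowest regulator probe sets. These made 57 probe sets, for which the alternatives were run one by one. The other Rab genes were to be named by their call, and their values are given as well so that every gene is described. Alternatives were centring on the array median, a trended and robust prior, a pseudocount of 0.1, a 1.5-fold threshold (limma treat), keeping control probe sets, leaving out each replicate, and stricter or wider gene rules. Across the 100 non-control probe sets on both array types, arrays of the same replicate number deviated together (r from 0.74 to 0.82), and those of different numbers did not (r from -0.50 to -0.01), so a number marks the same replicate on both types. Python 3.11.15 was used for summaries and figures.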

Additional observations from a re-analysis of the deposited data

Results flagged for a closer look

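An array was singled out where its log2 ratio lay far from the other 3 of its type by Dixon's criterion for 4 values. Of 104 probe sets examined, the Rab probe sets and the named regulators, 8 met it (7.69%), where chance flags about 1 in 20. High arrays were those of Rab26 on chip A in replicate 2, at 2.633 against 1.146 to 1.296, and of Rab6a on chip A in replicate 3, at 0.764 against 0.53 to 0.562. Low arrays on chip A were Rab18 in replicate 4, at 0.441 against 0.619 to 0.632, Rab12 in replicate 3, at 0.692 against 0.998 to 1.035, and Rab11fip4 in replicate 3, at 2.06 against 3.095 to 3.227. On chip B they were all in replicate 1: Rab17 at 0.368 against 0.392 to 0.393, Rab30 at 0.77 against 0.971 to 1.001, and Rab7b at 0.686 against 0.941 to 1.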

How the results depend on the processing

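No paired analysis was possible because both array types hold the same cells and share 0 Rab probe sets, so there are no groups to pair. Of 30 called Rab probe sets, 13 of 19 (chip A) and 7 of 11 (chip B) passed under every alternative other than the 1.5-fold threshold, and 2 and 3 passed under that as well. With that threshold the counts of lower Rab probe sets were 2 and 3, those of regulators 3 lower and 2 higher on chip A, and 7 lower and 0 higher on chip B. After centring on the array median 1 Rab probe set of chip A was called higher (Rab34), and 14 and 5 regulator probe sets were. Leaving out 1 replicate gave 14 to 16 lower and 0 to 1 higher Rab probe sets on chip A, and 7 to 10 lower and 0 higher on chip B (7 without replicate 1 and 7 without replicate 2). For regulators it gave 12 to 16 lower and 6 to 8 higher on chip A, and 12 to 14 lower and 0 to 1 higher on chip B. Requiring all probe sets of a gene on an array type to pass left 5 of 9 lower Rab genes on chip B and 10 of 15 on chip A. The share of all genes kept by this stricter rule was not computed. Leaving out Rab probe sets with a ratio of exactly 1, an alternative chosen after seeing the data, kept 24 of 33 on chip B. It changed 0 counts, but none of those left out had been called, so it could not have changed them. Of the 57 probe sets named by the rule, none changed direction while called under any of these alternatives, and 12 uncalled values changed sign under an alternative. Apart from the construction of each alternative, the cause of these shifts was not tested.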
